A study of Mus musculus with 6 samples.

Results

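The genes described here encode the enzymes, transporters and regulators through which the liver breaks down, makes and stores glucose. They were chosen by name as 35 gene symbols plus G6pc, the catalytic subunit of glucose 6-phosphatase, and all 36 were found among the 22183 gene symbols of the deposited count table. Their levels were compared between liver RNA of 3 samples with the group label S2W-DOX and 3 with the group label S2W-PBS. All 6 samples came from mice with the genotype label BucheKI/KI-Hep that had received DDC, fed chow without restriction. The genotype and DDC were common to both groups, so the comparison holds only within them and the effect of neither can be estimated. The design text describes BUCHE, butyrylcholinesterase, as overexpressed in hepatocytes, the main metabolic cells of the liver. The labels spell out neither PBS, DOX, DDC nor the prefix S2W, name no promoter for the knock-in, and give no age. An effect of the DOX agent and an effect of more Bche cannot be told apart here. Whether the samples of a group were separate animals is not stated, so the p-values speak only of variation among these 6 samples, part of which may be technical.

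The liver takes up glucose after a meal, traps it as glucose phosphate, stores it as glycogen or degrades it to pyruvate by glycolysis. Between meals it releases glucose from glycogen and builds it anew from lactate, amino acids and glycerol by gluconeogenesis. Most steps of glycolysis are reversible and shared by both directions, whereas a few irreversible steps use separate enzymes and carry most of the regulation. Insulin favours storage and glycolysis, and glucagon favours release.

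Total counts per library ranged from 32476725 to 41921404, and 14681 genes passed the filter on low counts, among them all 36 glucose genes, whose counts summed over the 6 libraries ran from 452 for Aldoa to 503128 for Pck1. Bche, the mouse gene for butyrylcholinesterase, stood at 177, 177 and 206 CPM (counts relative to the scaled total of each library) in PBS 1 to 3 and at 1938, 1867 and 1763 CPM in DOX 1 to 3. The mitochondrial genome supplied 3.45 to 4.58% of counts in PBS and 5.11 to 6.81% in DOX libraries. Among marker genes of cell types, 3 of 10 for hepatocytes rose and 0 fell, with a summed level of 92439 to 98793 CPM in PBS and 94558 to 121151 CPM in DOX. Of 10 markers of stellate cells and fibroblasts 7 fell, from a summed 1592 to 1931 CPM to 932 to 1290.0 CPM. Of 8 proliferation genes 6 fell, from 110.2 to 178 CPM to 69.4 to 78.9 CPM. Of 8 endothelial markers 4 rose, and the 8 summed to 216 to 253 CPM in PBS and 259 to 317 CPM in DOX. Of 10 macrophage markers 3 rose and 0 fell, with a median log2 fold change of -0.003 over the 10. Their summed levels overlapped, at 1441 to 1556 CPM in PBS and 1550.4 to 1578 CPM in DOX. Of 8 bile duct markers 1 rose and 2 fell. Of 5 tested lymphocyte markers 1 fell, and the 5 summed to 4.07 to 5.50 CPM in PBS and 1.27 to 2.51 CPM in DOX. Of 5 neutrophil markers tested 1 rose and 2 fell, and 0 of 5 erythroid genes passed. Each range of levels is a sum over all tested markers of its list, not over the called ones alone. Over all tested genes 13.5% rose and 14.0% fell. Of the muscle, pancreas and adipose lists only Pygm and Cela1 were tested, and neither passed. The count table held 5 of 6 muscle, 3 of 5 pancreas and 1 of 4 adipose symbols. The rest were absent by name, so their levels are not known. The part of these shifts in the results below was not tested. In RNA of bulk liver, fewer cells of a type and less RNA per cell cannot be told apart.

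Start regions were taken from RefSeq (GRCm38.p6, and GRCm38 is among the builds in the submitters' processing notes), which held 250 bases before and 50 after the start of 33 of the 36 genes. Gys2, Ppp1r3b and Insr were the others. The sequences below belong to Pck1, Pgk1, Khk and Irs1, which passed the test between groups, and to Pklr, which did not. These sequences each hold a motif tied in textbooks to glucose control or to low oxygen. They are written along the gene's strand and carry the motif in capitals. Those of Pck1, Pgk1 and Irs1 lie before the annotated gene. Those of Khk and Pklr lie inside it, after its first start, in an exon for Khk and in an intron for Pklr by the GENCODE annotation.

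Pck1, chr2:173152823-173153047, plus strand: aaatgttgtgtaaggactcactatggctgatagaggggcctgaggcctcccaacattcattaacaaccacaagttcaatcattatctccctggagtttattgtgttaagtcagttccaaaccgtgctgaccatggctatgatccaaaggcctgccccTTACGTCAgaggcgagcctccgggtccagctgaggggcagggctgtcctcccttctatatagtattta
Pgk1, chrX:106186850-106187099, plus strand: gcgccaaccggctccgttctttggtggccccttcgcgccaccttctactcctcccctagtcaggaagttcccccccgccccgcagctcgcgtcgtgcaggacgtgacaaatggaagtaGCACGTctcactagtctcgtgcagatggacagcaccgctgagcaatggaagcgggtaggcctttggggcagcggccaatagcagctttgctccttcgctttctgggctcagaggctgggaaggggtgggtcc
Khk, chr5:30921476-30921505, plus strand: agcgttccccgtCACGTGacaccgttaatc
Pklr, chr3:89136373-89136571, plus strand: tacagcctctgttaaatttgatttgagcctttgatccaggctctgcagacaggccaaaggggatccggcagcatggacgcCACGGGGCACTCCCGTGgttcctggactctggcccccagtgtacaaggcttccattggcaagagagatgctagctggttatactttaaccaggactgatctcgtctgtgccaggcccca
Irs1, chr1:82291440-82291689, minus strand: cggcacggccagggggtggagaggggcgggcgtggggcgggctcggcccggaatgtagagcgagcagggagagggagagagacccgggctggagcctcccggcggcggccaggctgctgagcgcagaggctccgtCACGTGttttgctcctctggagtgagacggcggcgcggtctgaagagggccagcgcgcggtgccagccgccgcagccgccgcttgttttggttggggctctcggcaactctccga

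Each motif was searched on both strands. The form TGACGNAA, close to the cyclic AMP response element TGACGTCA, was found in the Pck1 window and in 1.83% of the 27025 genes with a window. In Pck1 it reads TTACGTCA on the printed strand and begins 93 bases before the start. TGACGTCA itself was found among the 33 genes in Ldha alone, which did not pass the test between groups, and in 2.03% of all genes. The paired E-box, a carbohydrate response element of near-palindromic E-boxes 5 bases apart, occurred in the second of 2 Pklr windows, 170 bases before that start, and in 0.0518% of genes. This is the layout bound by the carbohydrate response factor encoded by Mlxipl. The single E-box CACGTG lay 71 bases before the start of Khk and 115 before that of Irs1. It was in 8 of the 33 glucose genes with a window and in 8.09% of all genes. Its other carriers, Irs2, Ldha, Pcx, Pdk2, Pfkfb3 and Ppp1r3c, did not pass the test between groups. The core ACGTGC, known from hypoxia-responsive genes and overlapping the E-box by up to 5 letters, was present 132 bases before the start of Pgk1. It was in 7 of the 33 genes and in 6.68% of all genes. Its other carriers, Gapdh, Hk1, Ldha, Pfkfb3, Pgam1 and Ugp2, did not pass. Of the 10 genes that rose, 1 had the E-box and 1 had this core. The forkhead form TGTTTAC was in 0 of the 33 and in 4.05% of all genes. A match describes letters only.

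Of the 36 glucose genes, 10 rose and 4 fell from PBS to DOX livers (adjusted p below 0.05), which is 27.8% and 11.1% of them, while over all tested genes 13.5% rose and 14.0% fell. Adjusted p-values of genes come from the quasi-likelihood test of edgeR, with the Benjamini-Hochberg method applied to all 14681 genes. The genes that rose were Slc37a4, Khk, Pgk1, Gckr, Slc2a2, Tpi1, Pkm, Pck1, Gpi1 and Pygl, and those that fell were Pfkfb1, Irs1, Pfkl and Gys2. No glucose gene that passed moved by as much as 2-fold, whereas 2.64% of all tested genes rose and 4.99% fell by at least that much. The median of the 36 log2 fold changes was 0.18, compared with -0.01 over all tested genes. The 3 DOX libraries lay entirely above or below the 3 PBS libraries for 18 of the 36 genes (50%), and for 44.1% of all tested genes.

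The called genes kept their direction under all 13 alternatives tried, and Slc37a4, Khk, Pgk1, Pfkl, Pfkfb1, Irs1 and Gys2 passed in every one. Scaled by library size alone, which shifted the median of all tested genes to -0.16 on the log2 scale, 5 glucose genes rose and 6 fell. Of all calls, 48.9% were higher in DOX with the scaling used throughout and 23.1% by library size alone. Gckr, Gpi1, Tpi1, Pkm and Pygl did not pass by library size alone (adjusted p of 0.057 for Gckr to 0.166 for Gpi1), and with limma on log2(FPKM + 1) these and Slc2a2 and Pck1 did not pass (adjusted p of 0.059 for Gckr to 0.178 for Pygl). The number that rose was 5 without PBS 1, 6 without PBS 2, PBS 3 or DOX 1, and the median fell to 0.03 without DOX 2. DOX 2 was the highest DOX library for 23 of the 36 genes, compared with 35.7% of all tested genes.

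**Figure D1:**
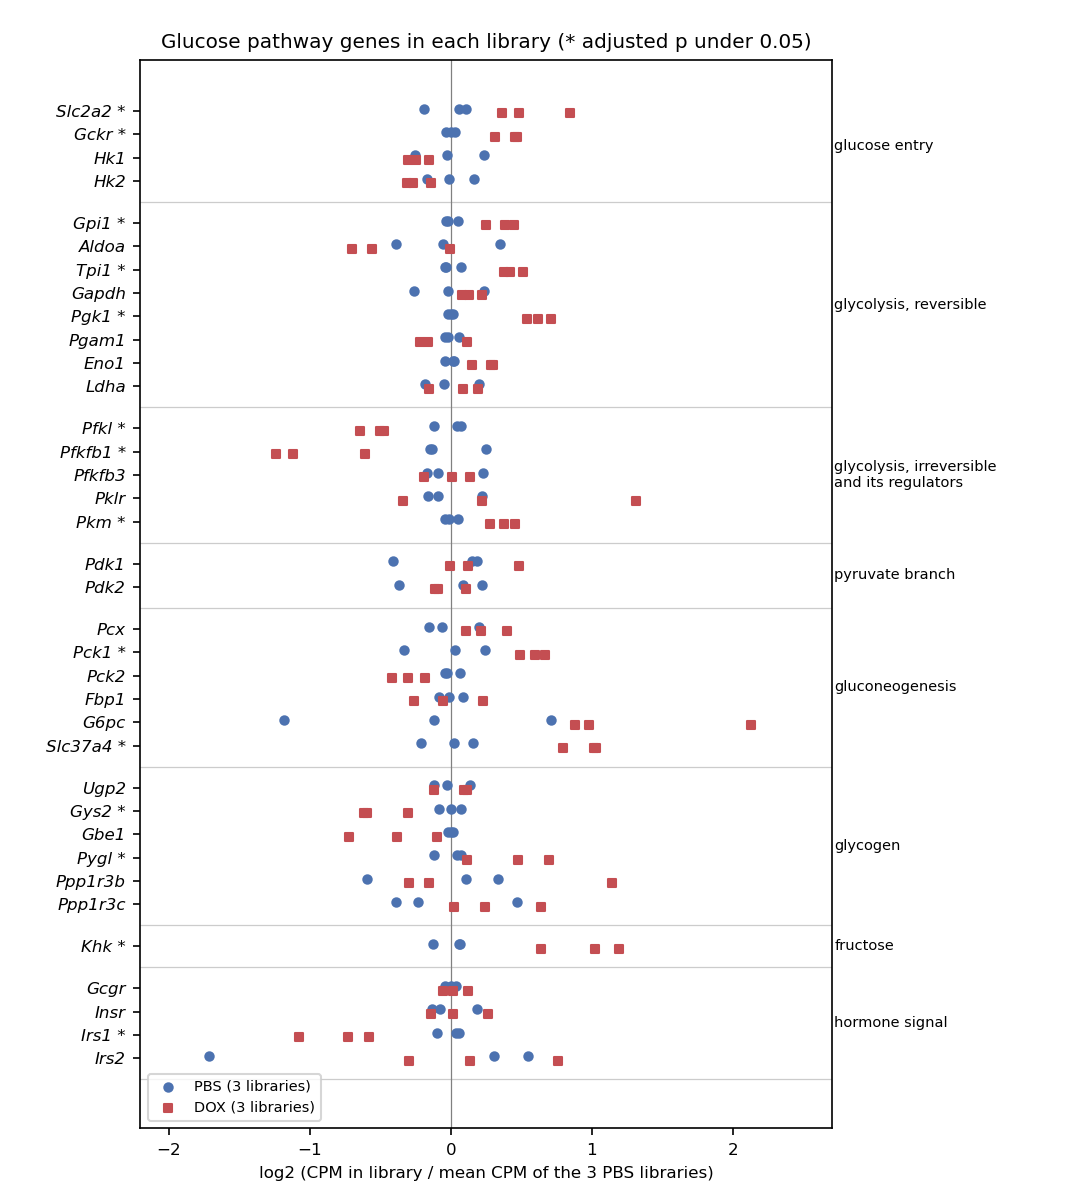
Level of each of the 36 glucose genes in every library, as log2 of its CPM over the mean CPM of the 3 PBS libraries, with circles for PBS and squares for DOX, and a star for genes past the test. The groups stand apart for Slc37a4, Khk and Pgk1 on the higher side and for Pfkfb1, Irs1 and Gys2 on the lower side, while G6pc, Irs2, Pklr and Ppp1r3b spread widely within a group.

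Glucose enters and leaves hepatocytes through GLUT2, encoded by Slc2a2. Slc2a2 was measured at 428, 360.5 and 442 CPM in PBS 1 to 3 and at 575, 737 and 527 CPM in DOX 1 to 3. Every DOX library was above every PBS library, with DOX 2 highest, and the fold change was 1.49 (log2 0.58, SE 0.15, adjusted p = 0.0148). It did not pass without PBS 2, the lowest library (adjusted p = 0.0691, with 0.00106 to 0.0691 as the span of its adjusted p across alternatives). Gckr encodes a nuclear regulatory protein of glucose phosphorylation in hepatocytes. It stood at 84.4, 88.4 and 86.4 CPM in PBS and at 119.7, 118 and 107 CPM in DOX, a narrow spread in both groups, and rose 1.33-fold (log2 0.41, SE 0.10, adjusted p = 0.00955). It did not pass with library size as the only scaling (adjusted p = 0.057), with 0.00128 to 0.059 as the span of its adjusted p across alternatives.

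Hexokinases trap glucose by phosphorylation. Hk2, a form that hepatocytes hold at low levels, was at 8.36, 9.47 and 7.52 CPM in PBS and at 6.80, 7.01 and 7.65 CPM in DOX. The groups overlapped and the gene did not pass (log2 fold change -0.24, SE 0.15, adjusted p = 0.261). Hk1 was at 11.2 ± 1.88 CPM in PBS libraries and 9.51 ± 0.507 CPM in DOX libraries (SD, n = 3 each; log2 fold change -0.23, SE 0.15).

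Of the 8 genes of reversible glycolysis, 3 rose and 0 fell, with a median log2 fold change of 0.20. The shares over all tested genes were 13.5% higher and 14.0% lower, with a median of -0.01. Pgk1, Tpi1 and Gpi1 rose, and Aldoa, Gapdh, Pgam1, Eno1 and Ldha did not pass. Pgk1, phosphoglycerate kinase (chromosome X, 106187100 to 106203699), which makes ATP in glycolysis, was at 367, 372 and 376 CPM in PBS and at 571, 540.5 and 609 CPM in DOX. The highest PBS library was 1.02 times the lowest, and all DOX libraries were higher. The fold change was 1.54 (log2 0.63, SE 0.11, adjusted p = 0.00277). Tpi1, triose phosphate isomerase, was at 429, 464 and 432 CPM in PBS and at 629, 574 and 592 CPM in DOX, 1.36-fold higher (log2 0.44, SE 0.11, adjusted p = 0.0155). Gpi1, the isomerase that converts glucose phosphate to fructose phosphate, was at 251, 236 and 239 CPM in PBS and at 330.3, 316 and 287 CPM in DOX, 1.29-fold higher (log2 0.36, SE 0.11, adjusted p = 0.0307). Neither gene had overlapping groups.

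Tpi1 did not pass without PBS 1 (adjusted p = 0.0742), PBS 3 (0.0555) or DOX 1 (0.0526), with 0.00026 to 0.0892 as the span of its adjusted p across alternatives. Gpi1 did not pass without PBS 1 (0.0809), PBS 2 (0.107), PBS 3 (0.0894) or DOX 1 (0.0965), with 0.00521 to 0.166 as the span of its adjusted p across alternatives.

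Of the reversible enzymes that did not pass, Eno1, enolase, was nearest, at 557, 559.9 and 534 CPM in PBS and 678, 671 and 612 CPM in DOX, with groups that did not overlap (log2 fold change 0.25, SE 0.12, adjusted p = 0.129). Ldha, lactate dehydrogenase A, was at 689 ± 95.3 and 712 ± 86.1 CPM, and Gapdh, glyceraldehyde phosphate dehydrogenase, at 112 ± 19.4 and 123 ± 6.28 CPM (SD, n = 3 each). Pgam1, phosphoglycerate mutase, was at 127 ± 4.60 and 119.7 ± 15.2 CPM. Aldoa, the aldolase of muscle and many dividing cells, had only 1.64 to 2.74 CPM in PBS and 1.33 to 2.14 CPM in DOX. Several of these genes, among them Gapdh, Aldoa, Eno1, Ldha, Pgk1 and Pkm, have near-identical pseudogenes or copies in the mouse genome, and how shared reads were counted is not given in the sources used here, so their levels are uncertain. The copy Eno1b was listed separately and averaged 7.51 CPM over PBS and 7.76 CPM over DOX libraries.

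**Figure D2:**
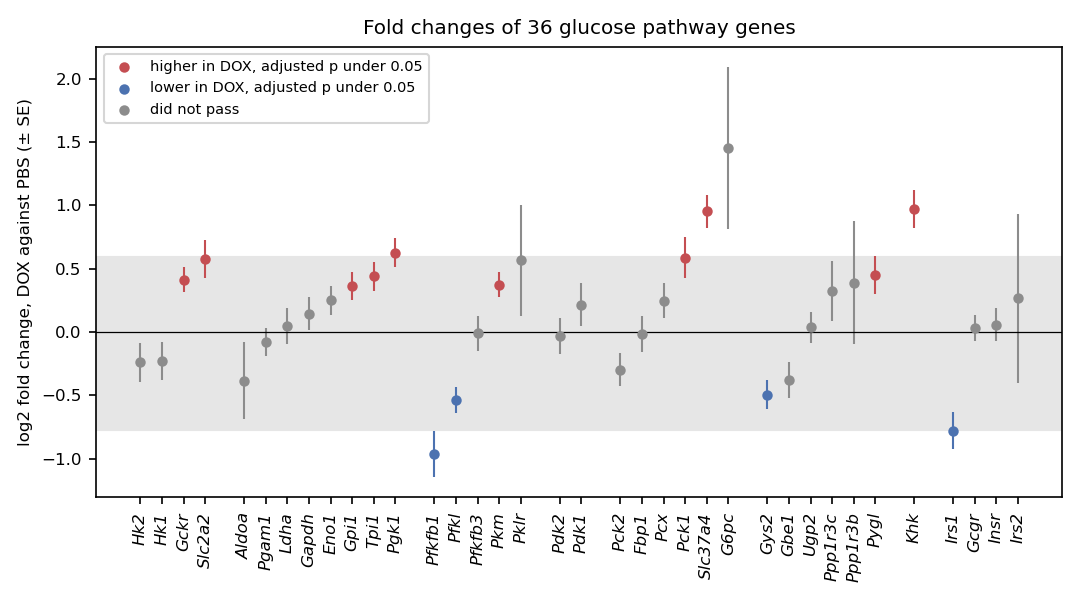
Log2 fold change of each glucose gene, DOX against PBS, with its standard error, in the order glucose entry, reversible glycolysis, irreversible glycolysis, pyruvate branch, gluconeogenesis, glycogen, fructose and hormone signal. The grey band holds the middle of all tested genes, from the 10th percentile at -0.77 to the 90th at 0.59. Slc37a4, Khk, Pgk1 and G6pc lie above it, G6pc with an SE of 0.64, and Pfkfb1 and Irs1 lie below it, at -0.96 and -0.78.

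Of the 5 genes at the irreversible steps, Pfkl and Pfkfb1 fell, Pkm rose, and Pfkfb3 and Pklr did not pass. For all tested genes the shares were 14.0% lower and 13.5% higher. Pfkl, the liver subunit of phosphofructokinase, which commits sugar to glycolysis, was at 38.3, 43.8 and 42.9 CPM in PBS and at 29.5, 30.0 and 26.7 CPM in DOX. The groups were well apart, and the gene was 1.45-fold lower (log2 -0.54, SE 0.10, adjusted p = 0.00412). Pfkfb1 encodes the bifunctional liver enzyme that makes and removes the fructose bisphosphate signal that activates phosphofructokinase. Its levels were 15.6, 15.7 and 20.5 CPM in PBS and 7.30, 11.3 and 7.97 CPM in DOX, 1.95-fold lower (log2 -0.96, SE 0.18, adjusted p = 0.00339). Pfkfb3, the inducible relative of Pfkfb1, was at 19.2 ± 2.91 CPM in PBS libraries and 19.1 ± 2.15 CPM in DOX libraries (SD, n = 3 each).

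Pklr, the pyruvate kinase of liver and red cells and a classic carbohydrate-responsive gene, was at 185, 149 and 142 CPM in PBS and at 185, 395 and 126 CPM in DOX. DOX 2 alone was high, DOX 1 equalled the highest PBS library and DOX 3 was below all PBS libraries. Pklr had a log2 fold change of 0.57 (SE 0.44, adjusted p = 0.394), and of -0.020 without DOX 2. Pkm, the pyruvate kinase of most other cells, was at 109, 102 and 104 CPM in PBS and at 137, 128 and 145 CPM in DOX, with no overlap, and rose 1.30-fold (log2 0.37, SE 0.10, adjusted p = 0.0173). It did not pass without PBS 1 (adjusted p = 0.0503), PBS 2 (0.0723), PBS 3 (0.0577) or DOX 3 (0.0633), with 0.00361 to 0.128 as the span of its adjusted p across alternatives. Cells other than hepatocytes express Pkm, and their markers moved in both directions, as given above; their part in this value was not tested.

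Pyruvate dehydrogenase kinases shut the entry of pyruvate into the citric acid cycle. Pdk1 was at 87.3 ± 18.8 CPM in PBS libraries and 101 ± 18.4 CPM in DOX libraries, and Pdk2 at 77.9 ± 15.7 and 76.3 ± 6.54 CPM (SD, n = 3 each), and neither passed. Pdk4, the member of the family that fasting and the fatty acid receptor PPAR-alpha induce, was not one of the 36. It was at 23.4, 20.5 and 31.1 CPM in PBS and at 8.65, 10.3 and 10.5 CPM in DOX, 2.55-fold lower (log2 -1.35, SE 0.16, adjusted p = 0.00034).

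Of the 6 genes of gluconeogenesis, Slc37a4 and Pck1 rose and 0 fell, with a median log2 fold change of 0.42. Among all tested genes 13.5% rose and 14.0% fell, with a median of -0.01. Slc37a4 (chromosome 9, 44396946 to 44402966) encodes the transporter that carries glucose phosphate into the endoplasmic reticulum, where it is cut to free glucose. It had the smallest p of the 36 genes, at 199, 154 and 181 CPM in PBS and 309, 359.6 and 363 CPM in DOX. All DOX libraries were well above all PBS libraries, and the rise was 1.93-fold (log2 0.95, SE 0.13, adjusted p = 0.000691). G6pc, its partner in that reaction, was at 204, 54.9 and 114 CPM in PBS and at 229, 544 and 246 CPM in DOX. The DOX libraries were all higher, but PBS 1 was close to DOX 1 and each group spanned a wide range. The log2 fold change of 1.45 had an SE of 0.64 and did not pass (adjusted p = 0.169, and 0.0634 to 0.362 over the alternatives).

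Pck1, cytosolic phosphoenolpyruvate carboxykinase, a rate-controlling enzyme of gluconeogenesis, was at 1803, 1406 and 2097 CPM in PBS and 2669.5, 2483 and 2811 CPM in DOX. The groups did not overlap and the rise was 1.50-fold (log2 0.59, SE 0.16, adjusted p = 0.0194). It did not pass without PBS 1 (adjusted p = 0.0634), PBS 2 (0.083), DOX 1 (0.0528) or DOX 3 (0.06), with 0.000908 to 0.083 as the span of its adjusted p across alternatives. Pck2, the mitochondrial form, was low, at 11.8 ± 0.465 CPM in PBS libraries and 9.57 ± 0.782 CPM in DOX libraries (SD, n = 3 each; log2 fold change -0.30, SE 0.13, adjusted p = 0.112). Its groups did not overlap. Pck2 passed as lower by library size alone (adjusted p = 0.0276) and with limma on log2(FPKM + 1) (0.0248), with 0.0248 to 0.274 as the span across alternatives. Pcx, pyruvate carboxylase, was at 533 ± 69.5 and 632 ± 65.2 CPM and did not pass. Fbp1, fructose bisphosphatase, was at 480.3, 540.1 and 503 CPM in PBS and 488, 594 and 425 CPM in DOX, with a log2 fold change of -0.02 (SE 0.14).

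Ketohexokinase, encoded by Khk (chromosome 5, 30921436 to 30931248), starts the breakdown of fructose. It showed the largest rise among the called glucose genes, from 209.8, 209 and 184 CPM in PBS to 408, 460.2 and 312 CPM in DOX. The lowest DOX library was far above the highest PBS library, and the fold change was 1.96 (log2 0.97, SE 0.15, adjusted p = 0.00123).

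Of the 6 glycogen genes, Gys2 fell and Pygl rose, with a median log2 fold change of 0.18. By comparison, 14.0% of all tested genes fell and 13.5% rose, with a median of -0.01. Gys2, the liver glycogen synthase (chromosome 6, 142422612 to 142473130), was at 125, 133 and 139 CPM in PBS and at 86.4, 107 and 87.8 CPM in DOX. No DOX library reached the PBS range, and the gene was 1.41-fold lower (log2 -0.50, SE 0.11, adjusted p = 0.00852). Pygl, the phosphorylase that releases glucose units from glycogen, was at 292, 261 and 298 CPM in PBS and 396, 459.6 and 308 CPM in DOX, 1.37-fold higher (log2 0.45, SE 0.15, adjusted p = 0.0421). Its groups were separated by the small gap between PBS 3 and DOX 3. The Pygl call was lost without PBS 1 (adjusted p = 0.0993), PBS 2 (0.143), PBS 3 (0.0801), DOX 1 (0.101) or DOX 2 (0.0832), with 0.0144 to 0.178 as the span of its adjusted p across alternatives.

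Gbe1, the branching enzyme, was at 134, 136 and 138 CPM in PBS and 104, 128 and 82.6 CPM in DOX. All DOX libraries were lower, yet they differed among themselves and the gene did not pass (log2 fold change -0.38, SE 0.14, adjusted p = 0.0654). It passed without DOX 2 (adjusted p = 0.0056), by library size alone (0.0101), with no filter on low counts (0.0213) and with limma on log2(FPKM + 1) (0.022). Its adjusted p spanned 0.0056 to 0.212 across alternatives. Ugp2, which makes the sugar nucleotide used by the synthase, was at 309.8 ± 27.6 CPM in PBS libraries and 318 ± 28.2 CPM in DOX libraries (SD, n = 3 each). The targeting subunits that bring protein phosphatase to glycogen did not pass. Ppp1r3b was at 126, 205 and 239 CPM in PBS and 170.3, 420.3 and 154 CPM in DOX, with a log2 fold change of 0.39 that was -0.21 without DOX 2, its highest library. Ppp1r3c spanned 9.74 to 17.7 CPM in PBS and reached 19.9 CPM in DOX 2 (log2 fold change 0.32, SE 0.23, adjusted p = 0.334), and passed without PBS 2 (adjusted p = 0.044, with 0.044 to 0.671 as the span of its adjusted p across alternatives).

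Among the receptors and adaptors of hormone signalling only Irs1 passed. Irs1 and Irs2 encode the docking proteins through which the insulin receptor acts. Irs1 (chromosome 1, 82233105 to 82291439) was at 17.9, 16.3 and 18.2 CPM in PBS and at 10.5, 11.7 and 8.29 CPM in DOX, with no overlap, and was 1.72-fold lower (log2 -0.78, SE 0.14, adjusted p = 0.00318). Irs2 was at 43.3, 9.06 and 36.7 CPM in PBS and 32.7, 24.2 and 50.2 CPM in DOX. PBS 2 was far below all other libraries, and the log2 fold change of 0.26 had an SE of 0.67 (adjusted p = 0.809). Without PBS 2 it was -0.17. Insr, the insulin receptor, was at 117 ± 14.3 CPM in PBS libraries and 122 ± 17.5 CPM in DOX libraries, and Gcgr, the glucagon receptor, at 121 ± 3.46 and 123 ± 7.76 CPM (SD, n = 3 each). Their log2 fold changes were 0.06 (SE 0.13) and 0.03 (SE 0.10).

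The glucose genes differed widely in how much they varied inside a group. The ratio of the highest to the lowest library had a median of 1.24 in PBS and 1.25 in DOX over the 36 genes, against 1.19 and 1.25 over the 11844 tested genes with at least the mean level of Aldoa, the lowest of the 36. Irs2 spanned 4.78-fold and G6pc 3.71-fold among PBS libraries, in both cases with PBS 2 lowest. Pklr spanned 3.14-fold and Ppp1r3b 2.72-fold among DOX libraries, in both cases with DOX 2 highest. The other genes of the 36 stayed at or below 1.82 in PBS and 1.62 in DOX.

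**Figure D3:**
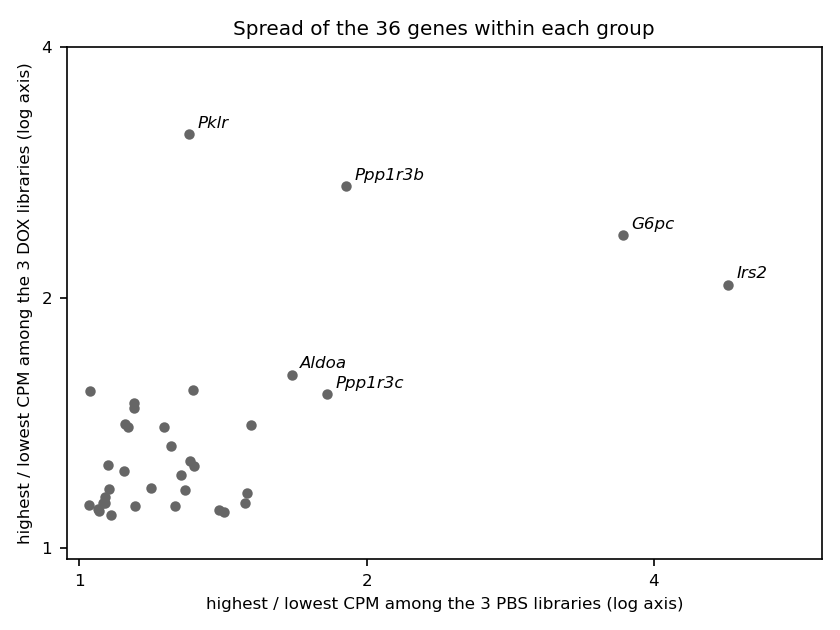
Ratio of the highest to the lowest CPM among the 3 PBS libraries (horizontal, log axis) and among the 3 DOX libraries (vertical, log axis), 1 point per glucose gene. Most genes lie near the lower left corner, while Irs2 and G6pc reach 4.78 and 3.71 in PBS and Pklr and Ppp1r3b reach 3.14 and 2.72 in DOX.

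Ratios between related genes within a library do not depend on how libraries are scaled to each other. They were taken from deposited FPKM values, which are levels per gene length, for 18 pairs. The groups did not overlap for 9 pairs, while of all tested genes taken singly 44.1% had no overlap. Each of the 9 had an exact two-sided permutation p of 0.1, the smallest that 3 samples against 3 allow. The adjusted p over the 18 pairs was 0.2. Most of the 9 hold a gene that was called singly, so they do not count as separate results. The plot of pair ratios shows 13 of the pairs, 6 of them without overlap. The ratio of Gys2 to Pygl was 0.389, 0.462 and 0.425 in PBS and 0.199, 0.212 and 0.26 in DOX, 1.91-fold lower. Pfkfb1 to Pfkfb3 went from 1.80, 1.91 and 1.89 to 0.903, 1.21 and 0.785. The ratio of Pck1 to Pck2 was 189, 157 and 236 in PBS and 391, 309 and 381 in DOX. In each of these pairs every DOX library lay on the same side of all PBS libraries.

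Fbp1 to Pfkl, which catalyse opposite reactions, went from 29.8, 29.3 and 27.8 to 39.3, 47.0 and 37.7. Of this pair Pfkl was called singly and Fbp1 was not. Slc2a2 to Slc2a1 and Pdk2 to Pdk1 also had no overlap, with differences in log2 ratio of 0.82 and -0.24. Pklr to Pkm showed no shift between groups beyond its spread, at 1.87 ± 0.17 in PBS and 1.91 ± 0.93 in DOX as log2 ratios (SD, n = 3 each).

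**Figure D4:**
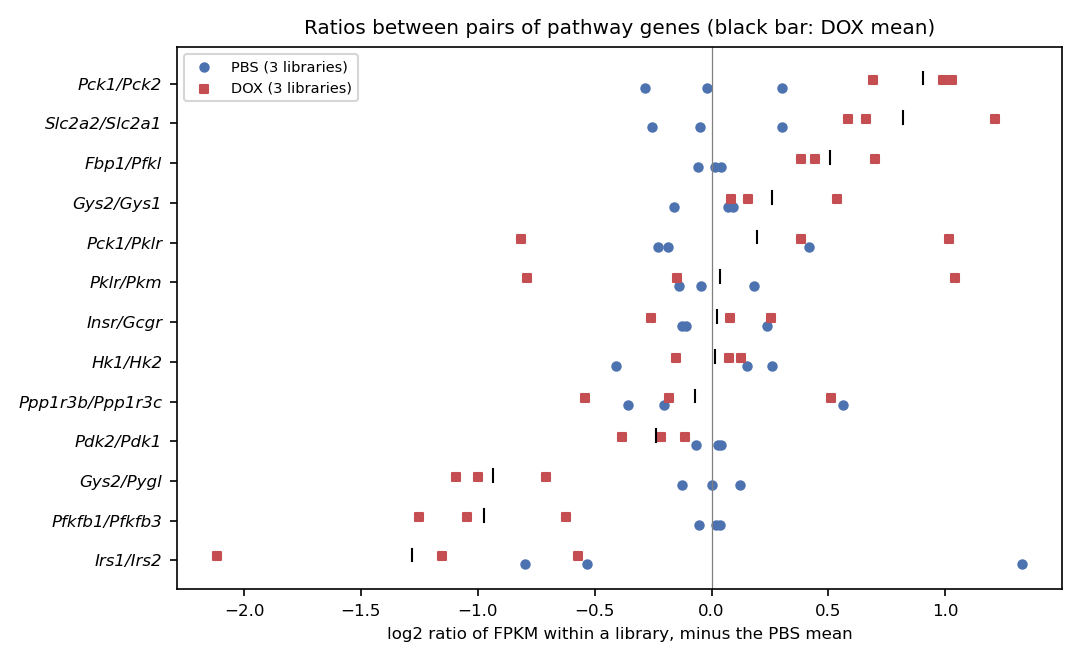
Log2 ratio of FPKM between 2 genes of a pair in each library, minus the mean of the PBS libraries, with circles for PBS, squares for DOX and a bar at the DOX mean. Pairs are ordered by the DOX mean, from Irs1/Irs2 at -1.28 to Pck1/Pck2 at 0.90, and 13 pairs are plotted.

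Per length, the glucose genes kept a wide order of levels. Pck1 was highest at 706 ± 119 FPKM in PBS and 954 ± 78.0 FPKM in DOX (SD, n = 3 each). In PBS it was followed by Tpi1 at 318 ± 21.2, Fbp1 at 312 ± 23.5 and Eno1 at 289.9 ± 16.3 FPKM. Their order was the same in each of the 3 PBS libraries. Tpi1 and Fbp1 were close in PBS 2, at 340.8 and 339.4 FPKM, and in PBS 3, at 299.3 and 298.4 FPKM. Aldoa, Hk2, Irs1 and Hk1 were lowest in PBS, at 1.24 ± 0.350, 1.49 ± 0.214, 2.01 ± 0.0838 and 2.18 ± 0.375 FPKM.

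Other genes of the same pathways, 144 in number and chosen by function, were then counted. Of these 141 were tested, 17 rose and 17 fell, or 12.1% each way, and their median log2 fold change was 0.01. These shares were slightly below those over all tested genes, of which 13.5% rose and 14.0% fell. The counts by list below are to be read against the same all-gene shares. Scaled by library size alone, 6 of the other pathway genes rose and 27 fell. Leaving out PBS 2, 7 rose. Leaving out PBS 3, 8 rose and 11 fell, and leaving out DOX 1, 11 rose.

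Of 23 other glycogen genes tested, 2 rose and 6 fell, with a median log2 fold change of -0.12. Pygb, the brain form of phosphorylase, fell 1.96-fold from 42.6 ± 2.18 to 21.7 ± 4.63 CPM (SD, n = 3 each; adjusted p = 0.00113). Phka2, the liver regulatory subunit of phosphorylase kinase, fell 1.55-fold (adjusted p = 0.00207), and Pgm2l1 1.61-fold (adjusted p = 0.00693). Pygb and Phka2 act in glycogen breakdown. The number called in this list, 8 in all, was 4 without PBS 3 and 5 without DOX 1.

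In the list of glucose entry and glycolysis, with 22 genes tested, 3 rose and 1 fell. Aldoc rose 1.64-fold (adjusted p = 0.00667) and Hk3, a hexokinase of blood cells, fell 1.43-fold from 18.1 ± 0.356 to 12.6 ± 0.212 CPM (SD, n = 3 each; adjusted p = 0.00671). Slc2a4, the insulin-responsive transporter of muscle and fat, was at only 1.54 ± 0.546 and 3.09 ± 1.09 CPM (adjusted p = 0.0407). The Slc2a4 call was lost without PBS 2 (adjusted p = 0.131), PBS 3 (0.123), DOX 1 (0.0799) or DOX 2 (0.13), with 0.0108 to 0.131 as the span of its adjusted p across alternatives. The number called in this list was 2 without PBS 2 or PBS 3.

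Among 14 tested genes of gluconeogenesis and its shuttles 2 rose and 3 fell. The alanine aminotransferases, which turn alanine into pyruvate, moved apart: Gpt, the cytosolic form, rose 1.69-fold from 325 ± 33.8 CPM to a mean of 548 ± 38.4 (adjusted p = 0.00183), and Gpt2, the mitochondrial form, fell 1.51-fold from 856 ± 76.6 to 565 ± 90.6 CPM (SD, n = 3 each; adjusted p = 0.0109). Slc25a10, the mitochondrial dicarboxylate carrier, fell 1.65-fold (adjusted p = 0.01), and Mdh1, cytosolic malate dehydrogenase, rose 1.30-fold (adjusted p = 0.0235). Mdh1 did not pass without any library but DOX 2, with adjusted p-values of 0.0544 without DOX 3 to 0.0794 without PBS 2, with 0.000683 to 0.136 as the span of its adjusted p across alternatives. The number called in this list was 3 without PBS 2, PBS 3, DOX 1 or DOX 3.

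At the pyruvate branch 2 of 15 genes rose and Pdk4 fell. Mpc1 and Mpc2, the subunits of the mitochondrial pyruvate carrier, rose 1.27-fold and 1.29-fold (adjusted p = 0.0445 and 0.0338). Mpc1 passed only when DOX 2 was the library left out, and Mpc2 only without DOX 2 or DOX 3, with adjusted p-values up to 0.162 and 0.121 without DOX 1, in ranges of 0.0134 to 0.292 and 0.0101 to 0.225 over the alternatives. The number called here was 1 without PBS 1, PBS 2, PBS 3 or DOX 1 and 2 without DOX 3.

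In fructose and galactose metabolism 1 of 10 genes rose and 1 fell. The gene that fell was Sord, sorbitol dehydrogenase, by 1.32-fold (adjusted p = 0.0345). Sord did not pass without PBS 1 (adjusted p = 0.0655), PBS 2 (0.0986), PBS 3 (0.11), DOX 1 (0.0554) or DOX 3 (0.105), with 0.00392 to 0.11 as the span of its adjusted p across alternatives. The number called was 0 without PBS 1, PBS 2 or PBS 3, 1 without DOX 1, 4 without DOX 2 and 3 without DOX 3. In the pentose phosphate pathway 1 of 8 genes was called, Pgls, which rose 1.38-fold (adjusted p = 0.0113). Pgls did not pass without PBS 3 (adjusted p = 0.0502, with 0.00154 to 0.105 as the span of its adjusted p across alternatives), and 2 genes of the pathway were called without DOX 2.

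In hormone signalling 2 of 27 other genes rose and 3 fell. Crtc2, the coactivator through which glucagon raises gluconeogenic transcription, went from 24.8 ± 1.89 to 49.7 ± 9.90 CPM (SD, n = 3 each; adjusted p = 0.000855). Trib3, a stress-induced pseudokinase that binds the kinase AKT, rose 2.16-fold from a low level of 4.26 ± 0.0936 CPM (adjusted p = 0.0102). With limma on log2(FPKM + 1) Trib3 did not pass (adjusted p = 0.0532), with 7.82e-05 to 0.0532 as the span of its adjusted p across alternatives. Trib1, a related pseudokinase, fell 1.54-fold (adjusted p = 0.0141). Trib1 did not pass without PBS 2 (adjusted p = 0.0528), PBS 3 (0.0596) or DOX 1 (0.0551), with 0.000501 to 0.0596 as the span of its adjusted p across alternatives. The number called in this list, 5, was 3 without PBS 2.

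Of 23 transcription and energy regulators 5 rose and 2 fell. Klf15, a factor that promotes amino acid use for gluconeogenesis, went from 103 ± 20.5 CPM to a mean of 207 ± 13.4 (adjusted p = 0.000885). Mlxipl, the carbohydrate response factor, went from 39.7 ± 7.60 CPM to a mean of 75.4 ± 4.70 (SD, n = 3 each; adjusted p = 0.000987). All 3 DOX libraries were above all PBS libraries for both. Pklr, a known target of Mlxipl, was high in DOX 2 alone, and other targets of Mlxipl were not examined as a set. A link between Mlxipl and any of the glucose genes was not tested. Ppara, the receptor PPAR-alpha, fell 2.14-fold (adjusted p = 0.0077), and Nr1h3, the oxysterol receptor LXR-alpha, 1.28-fold (adjusted p = 0.0227). Nr1h3 did not pass without PBS 2 (adjusted p = 0.0691), PBS 3 (0.0957) or DOX 3 (0.0842), with 0.00249 to 0.0957 as the span of its adjusted p across alternatives. Of this list 3 genes were called without PBS 2 and 4 without DOX 3.

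**Figure D5:**
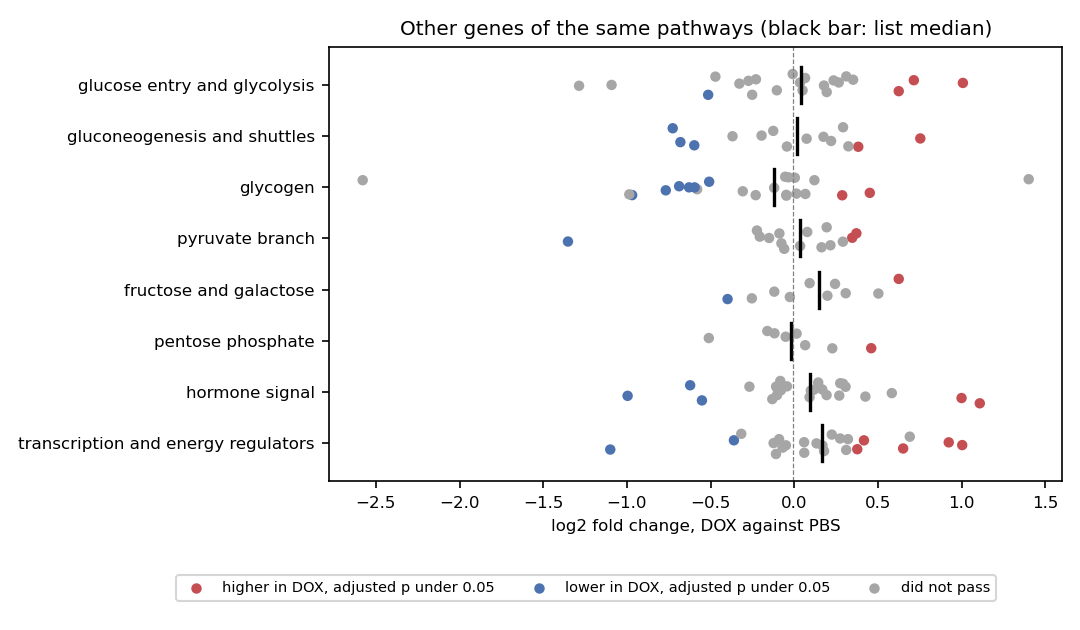
Log2 fold change, DOX against PBS, of each tested gene in 8 lists of other pathway genes, 1 point per gene, with red for genes that rose, blue for genes that fell and grey for genes that did not pass. Black bars are list medians, which run from -0.12 for glycogen to 0.17 for the regulators, and the dashed line is the median of all tested genes.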

How the data were processed

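Messenger RNA libraries of 6 mouse liver samples were made with a SMARTER kit from RNeasy-extracted RNA, per the labels' protocols. The authors deposited whole-number counts per gene symbol, with no normalization, and FPKM values that equal those counts divided by a fixed gene length and the library total. The submitters' processing notes list GRCm38, mm10 and hg38 with no role, and for aligner, counter, strand setting and gene models the answer is: not given in the sources used here. The columns were matched to samples by title, and 0 columns belonged to other samples. The labels name no batch. DOX was compared with PBS by edgeR 4.0.16 (quasi-likelihood test with robust estimation, TMM scaling, group as the only term, R 4.3.3) on the counts of genes kept by filterByExpr (minimum count 10, minimum total 15), with Benjamini-Hochberg adjustment and a threshold of 0.05. The procedure was run on simulated counts in which few genes changed, each by more than any called glucose gene here. That run does not bear on changes as small as those of the glucose genes. Libraries of a group differed by a chi-square per degree of freedom of 28.2 to 78.5, so none was taken as a copy. Precision is limited by 3 libraries per group.

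The glucose genes, the other gene lists, the pairs and the alternatives were chosen with earlier results of these data known. All 36 genes are named. Of each other list up to 4 called genes of smallest p were to be named, and Bche in any case, and the results of some genes and pairs are not reported here. Alternatives were RLE scaling, library size alone, no filter, a filter of 1 CPM in 3 libraries, DESeq2 1.42.0, limma 3.58.1 on log2(FPKM + 1), a replicate term, and leaving out each library. Replicate numbers are shared by the groups. Same-numbered libraries did not deviate together, but 3 libraries per group are too few to tell whether samples were paired. The main fit used no pairing.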

Additional observations from a re-analysis of the deposited data

How the results depend on the processing

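Scaled by library size alone, 1028 genes rose and 3429 fell over all genes, against 1975 and 2062, 5 and 6 of the glucose genes, and 6 and 27 of the other pathway genes. With limma on log2(FPKM + 1), which also has no composition correction, these were 917 and 3202, 3 and 6, and 5 and 28. Under these settings, in that order, 1 and 0 genes were called in glucose entry, 1 and 1 in reversible glycolysis, 1 and 1 in the fructose and galactose list, and by library size alone 0 in the pentose phosphate and 8 in the other hormone list. Leaving out each library, all genes that rose ranged from 1208 to 2440 and those that fell from 1305 to 2348, glucose genes that rose from 5 to 9 and fell from 4 to 5, and other pathway genes that rose from 7 to 20 and fell from 11 to 23. Genes called ranged from 1 to 2 in glucose entry, gluconeogenesis and glycogen, 1 to 3 in reversible glycolysis, and in the other lists from 2 to 4 in glucose entry and glycolysis, 3 to 7 in gluconeogenesis, 4 to 9 in glycogen, 1 to 4 at the pyruvate branch, 0 to 4 in fructose and galactose, 0 to 2 in pentose phosphate, 3 to 5 in hormone signalling and 3 to 9 in the regulators. Log2 fold changes that changed sign belonged to genes that did not pass: by library size alone -0.017 for Gapdh, and by library size alone and limma -0.11 and -0.11 for Ldha, -0.12 and -0.12 for Ugp2, -0.13 and -0.12 for Gcgr, and -0.097 and -0.095 for Insr. Without 1 library they ranged from -0.037 to 0.16 for Ldha, -0.089 to 0.12 for Pfkfb3, -0.020 to 0.87 for Pklr, -0.18 to 0.093 for Pdk2, -0.14 to 0.092 for Fbp1, -0.020 to 0.11 for Ugp2, -0.21 to 0.64 for Ppp1r3b, -0.019 to 0.071 for Gcgr, -0.048 to 0.16 for Insr and -0.17 to 0.64 for Irs2. Differences in log2 ratio ranged from -0.19 to 0.15 for Hk1/Hk2, -0.47 to 0.45 for Pklr/Pkm, -0.22 to 0.70 for Pck1/Pklr, -0.36 to 0.21 for Ppp1r3b/Ppp1r3c and -0.091 to 0.17 for Insr/Gcgr. The cause of these changes was not tested. Same-numbered libraries had correlations of deviations of 0.0861, -0.0731 and -0.134. With 3 libraries per group these values cannot settle whether the samples were paired. With a replicate block, 1633 genes rose and 1849 fell, 8 and 4 glucose genes (Gpi1, adjusted p = 0.0752, and Pygl, 0.0807, did not pass), and 15 and 16 other pathway genes, with 1 glycogen gene of the 36, 1 at the other pyruvate branch and 1 in fructose and galactose called. The depth allowed all 36 genes to be tested, and Aldoa had the fewest counts of them, 452 in all.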
